A study of Caenorhabditis elegans with 6 samples.

Results

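The RNAs described here are the non-coding transcript records of RefSeq that collected reads in starved first-stage larvae of the nematode Caenorhabditis elegans. Records were selected on their counts: a record was taken as expressed when it held at least 20 counts in at least 3 of the 6 libraries, and 437 of the 22456 non-coding records in the count tables met this. The tables hold 50832 records in all, and 12573 mRNA records met the same minimum. The minimum used the counts of both genotypes, so the levels below are a description of what was selected. RefSeq named 436 of the 437 records.

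Whole larvae of the wild-type strain N2 were compared with larvae of the double mutant spr-5; met-2, which carries spr-5 (by101)(I) together with met-2 (n4256)(III), 3 libraries of each, to find RNAs that differ between them. The protein SPR-5 removes methyl groups from histone H3 as LSD1 does in mammals. MET-2 adds methyl groups to histone H3 as SETDB1 does, at a different site from that of SPR-5. All parents were grown on the bacterial strain HT115 at 20 °C. All larvae, N2 included, hatched without food in M9 buffer at 21 to 22 °C, and each RNA sample pooled about 1000 to 1500 of them. The labels do not say whether replicates were separate cultures. The p-values therefore rest on how far these libraries spread, and that spread may be technical.

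Non-coding RNAs do their work as RNA. Ribosomal, small nuclear and small nucleolar RNAs (snoRNAs) are parts of the machines that translate, splice and modify other RNAs, and many worm snoRNAs are cut from introns of a host gene. MicroRNAs pair with mRNAs to repress them, and 21U-RNAs are the worm piRNAs, carried by the Argonaute PRG-1 in the germline. Long intergenic RNAs (lincRNAs) and antisense RNAs resemble mRNAs in length and processing, and most have no known role.

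Libraries held 17062557 to 25368364 counts. Counts of spr-5 were 66.2, 47.8 and 47.5 CPM (counts scaled by library size and TMM factor) in N2 replicates 1 to 3 and 129, 116 and 122.7 CPM in the mutant, so reads of this gene do not show its loss. Counts of met-2 were 118.7, 101 and 114 CPM in N2 and 87.4, 79.9 and 81.0 CPM in the mutant. Muscle and pharynx markers were present in every library (unc-54 mean 9674 CPM in N2 and 9199 CPM in spr-5; met-2), whereas elt-3 of the epidermis, rgef-1 of neurons, pgl-1 of the germline and vit-6 of adults were at 0 counts in all 6. Other epidermis and neuron markers were counted in every library. dpy-7 stood at 2.31, 45.1 and 4.26 CPM in N2 replicates 1 to 3 and at 4.76, 53.4 and 19.8 CPM in the mutant. Replicate 2 was thus the highest in both genotypes. The means in N2 and the mutant were 5.64 and 3.27 CPM for rab-3 and 0.848 and 1.13 CPM for unc-119. The epidermis marker lin-26 was near 0. elt-3, rgef-1 and vit-6 have 2 records each, and how shared reads were counted is not given, so 0 counts do not show that a tissue was missing. The 3 germline markers summed to 37.6 to 63.5 CPM in N2 and 588 to 646 CPM in the mutant, carried by glh-1 and htp-1. The 3 intestine markers summed to 141 to 182 CPM in N2 and 97.1 to 126 CPM in the mutant. Of these, ges-1 was lower (means 137 and 51.5 CPM), while elt-2 (18.0 and 52.15 CPM) and ifb-2 (1.67 and 2.97 CPM) were higher. The ifb-2 call was near the threshold (edgeR adjusted p = 0.0485, up to 0.1535 over the alternative fits). The pharynx marker tnt-4 was called lower at -0.72 on the log2 scale (0.0387, up to 0.134), and myo-2 at -0.37 was not called (0.227). The adult markers summed to 21.3 CPM in N2 replicate 3, all of it vit-2, against at most 3.48 CPM in any other library. The part of these tissue differences in the results below was not tested, and in RNA from whole larvae a change in the number of cells and a change in RNA per cell cannot be told apart.

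By their RefSeq type, 47 of the 437 records were lincRNA or long non-coding RNA, 19 antisense RNA, 43 snoRNA and 11 21U-RNA. There were 5 microRNA records, 2 of small nuclear RNA (snRNA) and 1 of ribosomal RNA. The class called ncRNA here took the 178 records of any type not given a class of its own. It includes RNAs of known families, such as rpr-1, the RNA of ribonuclease P. Another 130 were non-coding transcript records of 129 protein-coding genes, that is, isoforms listed without a protein. No non-coding record is named a pseudogene in RefSeq. The reach into each class was unequal: 1495 of 13405 21U-RNA records had any count and 11 reached the minimum, whereas 165 of 185 lincRNA records had counts and 47 reached it.

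A few RNAs held most of these reads. All expressed non-coding records together held 1.13%, 1.33% and 1.84% of the counts in N2 replicates 1 to 3 and 1.35%, 1.39% and 1.45% in the mutant. The 5 most abundant records made up 51.0% to 61.0% of that share and the first 10 made up 63.6% to 73.7%. They were tos-1, a gene whose alternative splicing is used as a reporter (its record without a protein), the 5.8S ribosomal RNA rrn-2.1, the ncRNAs W06H8.5 and C30E1.9, and the record without a name, at 1094, 1431 and 1629 CPM in N2 and 1265, 1591 and 1396 CPM in the mutant. The share of all counts in these records was 1.43% ± 0.362 (SD, n = 3) in N2 and 1.396% ± 0.0522 in spr-5; met-2, with overlapping groups (exact two-sided permutation test, p = 1.0, smallest possible 0.1). This depends on the scale: in TMM-scaled CPM the same records summed to 13720, 13920 and 18390 in N2 and 12600, 13040 and 13110 in the mutant, where every mutant library was below every N2 library. snoRNAs held 0.0272%, 0.0298% and 0.0403% of counts in N2 and 0.0418%, 0.0510% and 0.0476% in the mutant. As shares these groups did not overlap (exact two-sided permutation test, p = 0.1, the smallest the design allows). In TMM-scaled CPM they did, at 328.6, 312.3 and 403.8 in N2 and 390.8, 480.2 and 429.8 in the mutant. MicroRNA records held 0.0228%, 0.0127% and 0.0152% in N2 and 0.0118%, 0.00998% and 0.0112% in the mutant, without overlap (exact permutation p = 0.1). That value is mostly mir-354, which made up 266.7 of the 275.5 CPM of these records in N2 replicate 1 and 88.04 of the 93.94 CPM in mutant replicate 2.

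Between genotypes 59 of the 437 records were higher in spr-5; met-2 and 43 were lower, by edgeR's quasi-likelihood test over 14557 tested records of all kinds with a Benjamini-Hochberg adjusted p below 0.05. That is 13.5% and 9.84% of the records, beside 14.3% and 11.7% of all tested records and 14.6% and 12.6% of the mRNA records with the same minimum. In either direction the share was 23.3% of the non-coding records, 25.9% of all tested records and 27.2% of those mRNA records. Groups did not overlap in 167 records (38.2%), of which 80 were above N2 and 87 below, against 43.6% of all tested records. The median log2 fold change was -0.08, against -0.01 for all tested records.

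The selection bears on these calls. For 32 records no N2 library reached 20 counts, so they passed through the mutant alone, and 29 of them were called higher. For 11 no mutant library did, and 9 of them were called lower. Among the 394 records that reached it in at least 1 library of each genotype, 30 were higher and 34 lower. Changes of at least 2 on the log2 scale were seen in 31 higher and 6 lower records, but in 4 and 1 of those 394. Scaling to library size without TMM factors moved the median of all tested records from -0.01 to 0.21 and gave 69 higher and 23 lower records, so higher records were 75.0% of calls in place of 57.8%. With the replicate number as a block 76 were higher and 64 lower. Lower calls ranged from 22 to 46 when 1 library was left out, with 23 without mutant replicate 2 and 22 without mutant replicate 3. At the edge of the selection, C41G11.18, T25C12.6 and linc-108 had a third-highest count of 20 and were taken, and K02A6.6, Y73B6A.16 and sql-1 had 19 and were not.

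**Figure D1:**
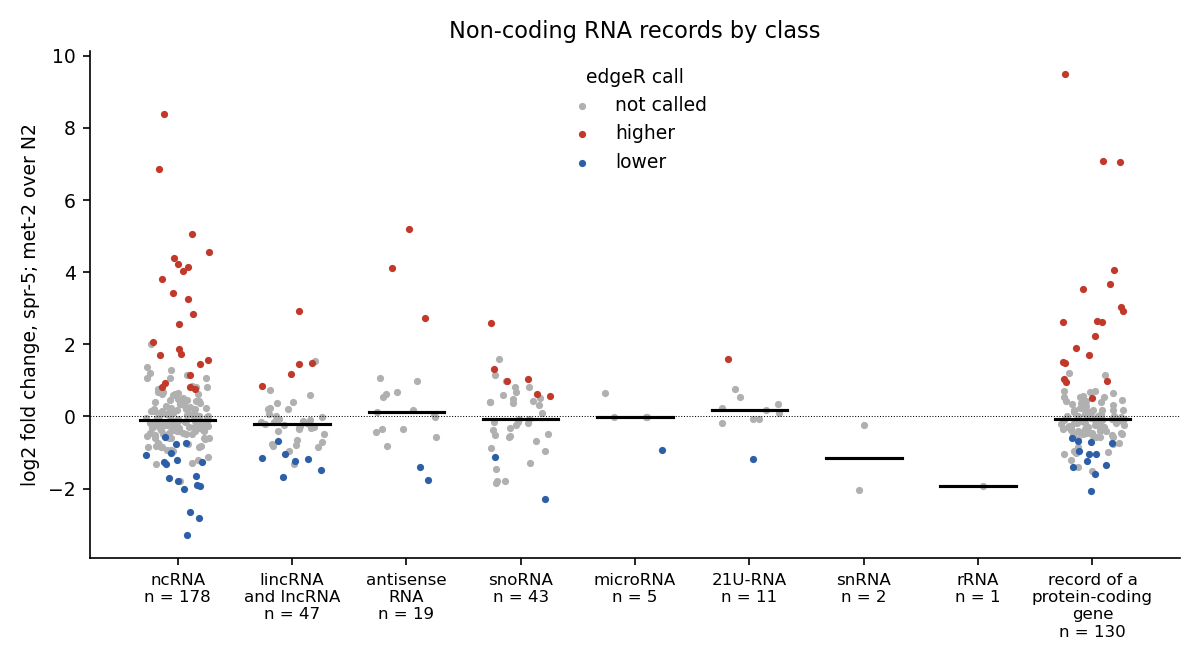
Log2 fold change of spr-5; met-2 over N2 for each named non-coding record (points, vertical axis) in each class (horizontal axis). Colour gives the edgeR call at an adjusted p below 0.05, and a black bar gives the class median. Called records above 4 lie among the ncRNA, antisense RNA and protein-coding gene classes, and the largest fall, R07E4.7 at -3.28, is an ncRNA.

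Of the ncRNA class, 24 of 178 records were higher and 18 lower, with a median log2 change of -0.09. The counts of this class and of those below stand beside 14.3% higher and 11.7% lower over all tested records. No class was tested against these shares. Among the 156 that reached 20 counts in at least 1 library of each genotype, 11 were higher and 12 lower. The best known is rncs-1, a long RNA of the epidermis and intestine that is induced by starvation and can inhibit Dicer in vitro. It stood at 182, 291 and 421 CPM in N2 replicates 1 to 3 and at 64.2, 71.8 and 99.0 CPM in the mutant. Every mutant library lay below every N2 library. The log2 fold change was -1.93 ± 0.31 (SE, with adjusted p = 0.00335 by edgeR), and it stayed past the threshold in every alternative fit. Dicer itself, dcr-1, was higher at 118 ± 8.39 CPM against 73.8 ± 5.64 (SD, n = 3), 0.68 ± 0.12 on the log2 scale (SE, adjusted p = 0.00467 by edgeR).

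Other known long RNAs of this class did not pass the test. tts-1, which is induced in long-lived daf-2 mutants and lowers ribosome levels there, stood at 2.80, 6.88 and 9.87 CPM in N2 and at 5.01, 5.13 and 5.62 CPM in the mutant (edgeR adjusted p = 0.617), and the 3 N2 libraries spanned the mutant ones. tts-2, named here after its values were seen, stood at 57.98, 89.3 and 116 CPM against 102, 130 and 167 CPM. The groups overlapped, the log2 fold change was 0.60 ± 0.27 (SE) with an edgeR adjusted p of 0.144, and with the replicate block the adjusted p was 0.00385. lep-5, a lincRNA that times the larval-to-adult change with LIN-28, was near the limit of detection at 0.495, 1.04 and 1.35 CPM in N2 and 0.569, 1.66 and 0.463 CPM in the mutant. Its log2 fold change of -0.14 (edgeR adjusted p = 0.883) was -0.91 without mutant replicate 2.

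Among the most abundant ncRNAs 2 of 4 changed. C30E1.9, an X-linked record with 14770 exonic bases, was counted at 1148, 839 and 1053 CPM in N2 and 1807, 1890 and 1608 CPM in the mutant. All mutant libraries were above all N2 libraries, with 0.80 ± 0.16 on the log2 scale (SE, adjusted p = 0.00821 by edgeR). T05E11.9 on chromosome IV went the other way, from 556, 542 and 629 CPM to 390, 396 and 369 CPM. Its log2 fold change was -0.58 ± 0.12 (edgeR adjusted p = 0.00938). That call was lost without mutant replicate 3 (adjusted p = 0.0600) and with library size alone as the scale (0.0818). W06H8.5 and Y53F4B.45 had log2 fold changes of -0.12 and -0.21 and did not pass (edgeR adjusted p = 0.600 and 0.231). Per kilobase of exon in N2, W06H8.5 stood at 664 CPM, T05E11.9 at 495, Y53F4B.45 at 466, rncs-1 at 371 and C30E1.9 at 68.6.

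Of the higher ncRNAs, those with the smallest adjusted p, no overlap between groups and at least 1 CPM in the mutant started from at most 2.65 CPM in N2. Y77E11A.3 on chromosome IV had no count in N2 and 1.76, 2.54 and 1.81 CPM in the mutant, at least 39.6-fold higher against a floor of 3 counts over the N2 group. W03G1.8 on the same chromosome had 1 count in all N2 libraries together and 2.79, 2.70 and 2.53 CPM in the mutant, a ratio of 154.8 with an exact 95% interval of 27.4 to 6150 that covers counting error only. Neither name carries a known function. D1022.17 on chromosome II stood at 0.550, 0.396 and 0.601 CPM in N2 against 6.41, 8.16 and 7.33 CPM, 3.81 ± 0.27 on the log2 scale (SE, adjusted p = 6.55e-05 by edgeR). C06A1.12, also on chromosome II, stood at 0.659, 0.297 and 1.102 CPM against 10.6, 13.3 and 12.7 CPM, a log2 fold change of 4.14 ± 0.40 (edgeR adjusted p = 0.000276). CD4.10 on chromosome V rose by 2.56 ± 0.23 (edgeR adjusted p = 0.000181), K09H11.16 by 2.06 ± 0.29 (0.00178), R11E3.18 by 4.21 ± 0.38 (0.000195) and ZK1236.12 by 4.55 ± 0.64 (0.00176). In each of these 8 records the 3 mutant libraries were above the 3 N2 libraries, as the rule for naming asked. Y77E11A.3, W03G1.8 and D1022.17 were among the 15 ncRNA records with no N2 library at 20 counts, which were selected through the mutant alone. The value of ZK1236.12 was 3.78 without mutant replicate 2, where it was 11.4 CPM against 2.998 and 4.16 CPM in the other mutant libraries. The value of W03G1.8 was 8.79 without N2 replicate 2, which held its single N2 count.

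Of the lower ncRNAs, those with the smallest adjusted p are given here, with rncs-1 above and T25C12.6 beside its host gene. R07E4.7 and R07E4.9 both lie in introns of kin-2, which encodes the regulatory subunit of protein kinase A, on the strand opposite to it. R07E4.7 stood at 2.20, 2.87 and 1.80 CPM in N2 and at 0.207, 0.276 and 0.213 CPM in the mutant, -3.28 ± 0.36 on the log2 scale (SE, adjusted p = 0.000558 by edgeR). R07E4.9 stood at 3.13, 2.62 and 3.25 CPM against 0.775, 0.717 and 0.890 CPM, a fold change of -1.90 ± 0.27 on the log2 scale (edgeR adjusted p = 0.00183). Both sets of libraries were fully apart, while kin-2 mRNA itself differed by -0.25 and did not pass (edgeR adjusted p = 0.641). M01H9.6 fell by 2.65 on the log2 scale (edgeR adjusted p = 0.00339) and lies in an intron of M01H9.3, which was also lower at -0.54 (0.0486). T23B12.14, K02E11.15 and W05G11.8, which overlap no protein-coding gene, had log2 fold changes of -2.01, -1.78 and -1.0012 (edgeR adjusted p = 0.00378, 0.00165 and 0.00344).

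**Figure D2:**
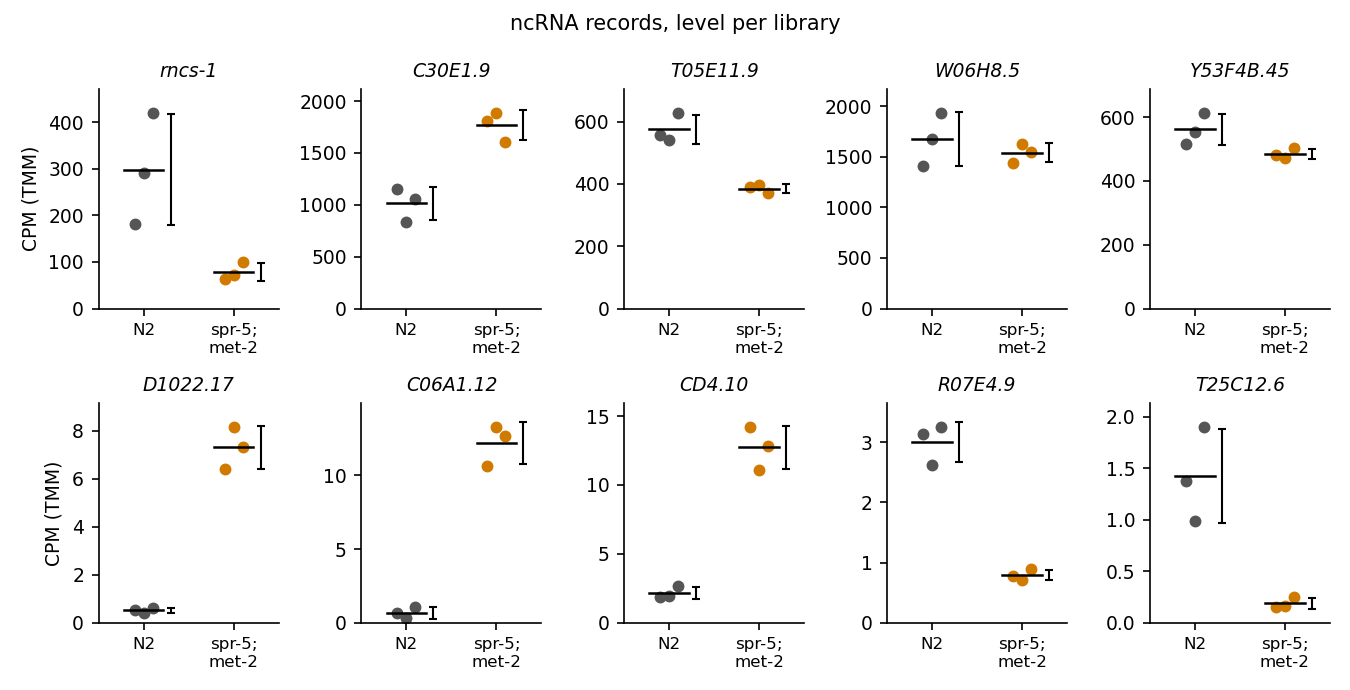
Level of 10 ncRNA records in each library (points) on a CPM axis that starts at 0 in each panel, for N2 and spr-5; met-2, with the group mean as a bar and the SD over 3 libraries beside it. rncs-1 and T05E11.9 are lower and C30E1.9 higher in all 3 mutant libraries, W06H8.5 overlaps between genotypes, and D1022.17, C06A1.12 and CD4.10 rise from at most 2.65 CPM.

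Of the lincRNAs, 5 of 47 were higher and 7 lower, with a median log2 change of -0.21. With the replicate block 5 were higher and 10 lower, and with library size alone as the scale 6 were higher and 4 lower. The most abundant of the higher ones was linc-22 on the X chromosome, at 38.2, 45.2 and 43.4 CPM in N2 and 87.7, 106 and 90.8 CPM in the mutant. Its log2 fold change was 1.17 ± 0.13 (SE, with adjusted p = 0.000573 by edgeR). linc-74 on chromosome II had the largest rise, from 0.275, 0.495 and 0.601 CPM to 4.08, 3.03 and 3.42 CPM, a log2 fold change of 2.92 ± 0.35 (edgeR adjusted p = 0.000794). For both, all mutant libraries were above all N2 libraries, and the call held in every alternative fit.

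The calls of the other higher lincRNAs did not hold in every alternative fit. linc-13 rose by 1.45 ± 0.31 on the log2 scale (SE, edgeR adjusted p = 0.0115), with an adjusted p of 0.0535 without mutant replicate 3. linc-69 rose by 1.48 ± 0.43 (edgeR adjusted p = 0.0376), and its call was lost without N2 replicate 1 or 2 or any 1 mutant library (0.0741 to 0.118). F19G12.10 rose by 0.83 ± 0.25 (0.0432), a call lost without N2 replicate 2 or 3 or mutant replicate 2 or 3 (0.108 to 0.147). The class count of higher records was 3 without N2 replicate 2 or mutant replicate 2, and 2 without mutant replicate 3.

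Lower lincRNAs were led by linc-2 on chromosome III, with 16.6, 14.96 and 12.7 CPM in N2 and 6.31, 4.30 and 5.12 CPM in the mutant. Its log2 fold change was -1.49 ± 0.21 (SE, with adjusted p = 0.00188 by edgeR). It lies on an exon of pcf-11, a cleavage factor gene of the same strand, which itself differed by 0.05 (0.881). linc-7 on the X chromosome stood at 28.6, 31.6 and 27.1 CPM against 14.7, 12.7 and 15.2 CPM, a log2 fold change of -1.03 ± 0.14 (edgeR adjusted p = 0.00178). linc-101 fell by 1.16 (edgeR adjusted p = 0.0107). For these 3 records the groups were apart, as the rule for naming asked, and the call held in every fit. linc-125, linc-85, linc-108 and linc-11 fell by 1.23, 1.19, 1.69 and 0.69 on the log2 scale (edgeR adjusted p = 0.0207, 0.0343, 0.0395 and 0.0221). The call of linc-125 was lost without mutant replicate 2 or 3 (0.0742 and 0.0973). The calls of linc-85, linc-108 and linc-11 were lost without N2 replicate 2, without mutant replicate 2 or 3, and with library size alone (adjusted p from 0.0510 to 0.153). linc-85 and linc-11 also lost it without mutant replicate 1 (0.0577 and 0.0588), linc-85 and linc-108 without N2 replicate 3 (0.0915 and 0.0608), and linc-108 without N2 replicate 1 (0.0937). The class count of lower records was 4 without N2 replicate 2 and 3 without mutant replicate 2 or 3. T09F5.12, the most abundant long RNA of the class, and linc-37 did not pass (edgeR adjusted p = 0.303 and 0.844).

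**Figure D3:**
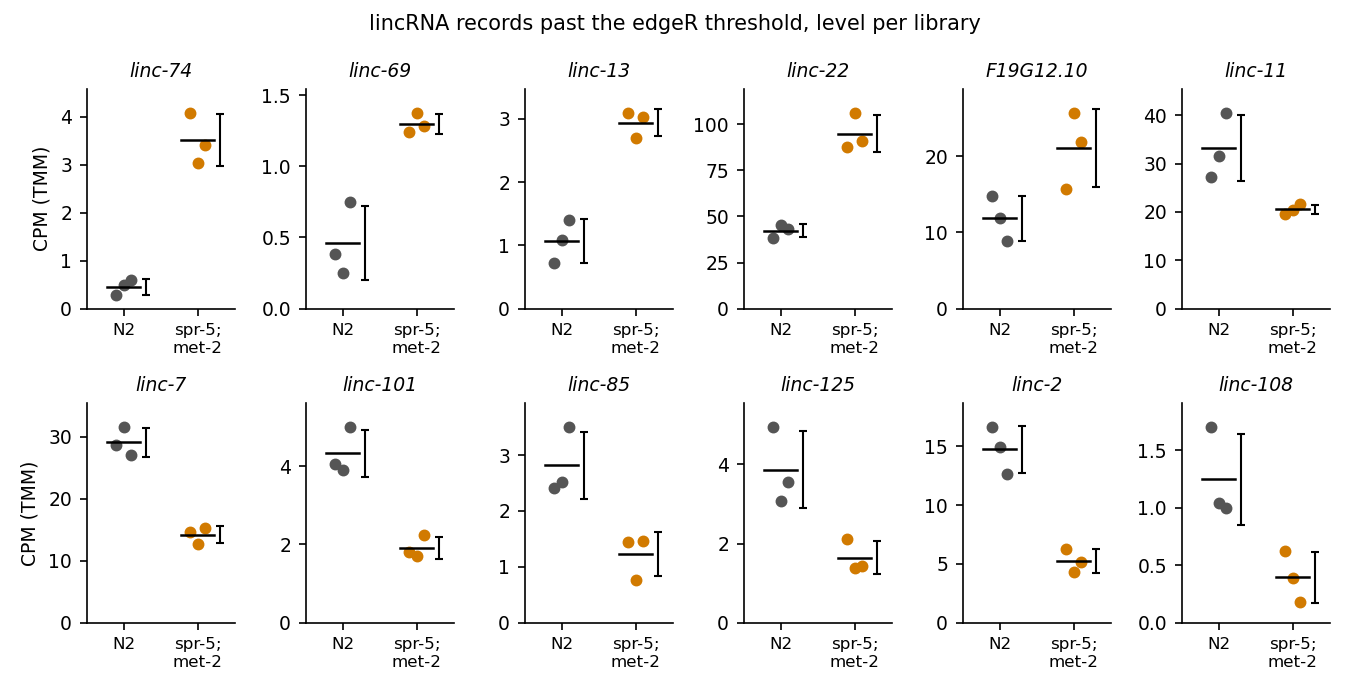
Level of the 12 lincRNA and lncRNA records past the edgeR threshold in each library (points, CPM axis from 0), with group means as bars and SD over 3 libraries, ordered from the largest rise (linc-74, log2 fold change 2.92) to the largest fall (linc-108, -1.69). In each panel the 3 mutant libraries lie on 1 side of the 3 N2 libraries.

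Of 19 antisense RNAs, 3 were higher and 2 lower, with a median log2 change of 0.14, and with the replicate block 5 were higher and 3 lower. C15H11.16 on chromosome V stood at 0.165, 0.0495 and 0.1002 CPM in N2 and 2.58, 5.24 and 4.16 CPM in the mutant, 5.19 ± 0.49 on the log2 scale (SE, adjusted p = 0.000247 by edgeR). It lies opposite an exon of gnrr-2, a receptor gene of the gonadotropin-releasing hormone receptor family, which differed by -0.15 (0.838). K10G4.14 rose by 4.12 ± 0.35 (edgeR adjusted p = 0.000144) opposite K10G4.5, which differed by 1.01 (0.0561).

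The remaining 3 called antisense RNAs split in direction. anr-48 rose from 1.04, 0.396 and 0.250 CPM to 4.19, 3.31 and 3.67 CPM, 2.73 ± 0.47 on the log2 scale (SE, adjusted p = 0.00487 by edgeR) that was 3.48 without N2 replicate 1. It lies opposite C33C12.12, which rose more, by 5.34 (0.000258). anr-20 stood at 6.65, 4.36 and 5.86 CPM in N2 and 2.43, 1.99 and 1.99 CPM in the mutant, a log2 fold change of -1.39 ± 0.25 (edgeR adjusted p = 0.00568), opposite the phosphatase subunit gene ppfr-1 at 0.52 (0.567). anr-52 fell by 1.75 ± 0.37 (edgeR adjusted p = 0.0111), opposite the neprilysin gene nep-26 at 0.73 (0.108). The groups of these 5 records did not overlap, as the rule for naming asked. anr-1, which lies opposite the histone methyltransferase gene set-1, stood at 9.84, 12.4 and 21.0 CPM in N2 and 17.4, 28.1 and 23.8 CPM in the mutant. The groups overlapped and the edgeR adjusted p was 0.141, but 0.0246 with the replicate block and 0.0317 without N2 replicate 3. Whether reads were assigned by strand is not given in the sources used here, so reads of an antisense RNA and of the gene opposite to it cannot be told apart.

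snoRNAs guide the methylation and pseudouridylation of ribosomal and other RNAs. Of 43 records, 6 were higher and 2 lower, with a median log2 change of -0.07. Among the higher ones, K09H9.11 stood at 16.1, 17.4 and 16.5 CPM in N2 and 30.1, 38.2 and 30.7 CPM in the mutant, 0.99 ± 0.15 on the log2 scale (SE, adjusted p = 0.00244 by edgeR). F58D5.11 stood at 18.0, 12.8 and 18.4 CPM against 34.1, 52.5 and 35.4 CPM, a log2 fold change of 1.31 ± 0.22 (edgeR adjusted p = 0.00471). T25C12.11 and T25C12.12 lie on the same gene and rose by 0.62 ± 0.13 and 0.58 ± 0.16 (edgeR adjusted p = 0.0123 and 0.0290), and R144.18 rose by 1.03 ± 0.26 (0.0226). C23G10.12 rose by 2.58 ± 0.50 (edgeR adjusted p = 0.00760) from at most 0.347 CPM in N2. The calls of T25C12.12 and R144.18 were lost without N2 replicate 1 or 2 or mutant replicate 2 or 3 (0.0570 to 0.109).

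Of the lower snoRNAs, ZK20.9 stood at 1.98, 2.23 and 2.80 CPM in N2 and 0.517, 0.386 and 0.498 CPM in the mutant, -2.30 ± 0.31 on the log2 scale (SE, adjusted p = 0.00161 by edgeR). F30H5.4 fell by 1.13 ± 0.31 (edgeR adjusted p = 0.0307), a call lost without N2 replicate 1 (0.0558), mutant replicate 2 (0.1004) or mutant replicate 3 (0.117), and with library size alone (0.0515). Without N2 replicate 1 or mutant replicate 2 the class had 1 lower record.

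With the replicate number as a block 9 snoRNAs were higher and 8 lower. The 6 that were lower with the block alone were Y74C9A.6, F46F11.12, W08G11.6, T24H7.6, Y38F2AR.14 and Y24D9A.9, named here after their values were seen. In Y38F2AR.14 the level was 2.25, 1.49 and 7.31 CPM in N2 and 0.259, 0.772 and 1.92 CPM in the mutant. In T24H7.6 it was 2.64, 1.29 and 4.91 CPM against 0.310, 0.441 and 1.67 CPM. In both the groups overlapped, while each mutant library lay below the N2 library of the same number. The edgeR adjusted p was 0.120 and 0.0971 without the block and 0.00685 and 0.00535 with it.

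snoRNAs were also divided by their place in a host gene. Of 19 annotated on an exon of a protein-coding gene of the same strand, 5 were higher and none lower (edgeR; with the block 6 and 0, and in 7 of them all mutant libraries were above all N2 libraries, in 0 below). Their median log2 fold change was 0.50. Over all tested records 14.3% were higher, 11.7% were lower and 43.6% had groups that did not overlap in either direction. Reads on an exon of a host gene may come from its mRNA. Of 14 in an intron of the same strand, none was called higher or lower without the block, 1 was higher and 5 lower with it, and the median was -0.54. N2 replicate 3 gave the highest level of 7 of these 14 and of 4 of the 19. The split by place was made after the values were seen and has no test.

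Structural RNAs of the ribosome, the spliceosome and RNA processing were next. rrn-2.1, the 5.8S ribosomal RNA, stood at 1133, 1037 and 4965 CPM in N2 replicates 1 to 3 and at 332, 486 and 1072 CPM in the mutant. The third replicate was the highest in both genotypes, and mutant replicate 3 lay inside the N2 range. The log2 fold change was -1.92 ± 0.68 (SE) with an edgeR adjusted p of 0.0771 without the block and 0.000531 with it. It was -0.81 without N2 replicate 3 and -2.54 without mutant replicate 3 (edgeR adjusted p = 0.251 and 0.0640). Ribosomal RNA comes from a tandem array of near-identical copies, so its counts are uncertain.

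Of the RNAs of lower level, rpr-1, mrpr-1 and the signal recognition particle RNAs are named after their values were seen. sup-6, an snRNA record, stood at 3.90, 2.53 and 15.6 CPM in N2 and 0.569, 1.27 and 3.35 CPM in the mutant (edgeR adjusted p = 0.104, with the block 0.00278). Its log2 fold change was -2.05 ± 0.81 (SE), and it was -0.88 without N2 replicate 3 and -2.99 without mutant replicate 3. rpr-1, the RNA of ribonuclease P, stood at 1.26, 3.17 and 7.26 CPM against 0.672, 1.32 and 2.70 CPM (edgeR adjusted p = 0.206, with the block 0.00836). mrpr-1, the RNA of ribonuclease MRP, stood at 2.20, 1.19 and 4.46 CPM against 0.413, 0.552 and 1.25 CPM (edgeR adjusted p = 0.0596, with the block 0.00557). In all 4 every mutant library was below the N2 library of the same number, and the groups overlapped. The other snRNA record, F32B5.9, differed by -0.23 (edgeR adjusted p = 0.676). N2 replicate 3 is also the library with vit-2 at 21.3 CPM, and the part of that in these values was not tested.

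Signal recognition particle RNAs did not move as 1 group. srpr-1.1 rose from 0.879, 1.04 and 1.15 CPM to 6.31, 2.096 and 1.71 CPM, with a log2 fold change of 1.70 ± 0.53 (SE, with adjusted p = 0.0486 by edgeR, up to 0.120 over the alternative fits). All mutant libraries were above all N2 libraries, and mutant replicate 1 was well above the others. srpr-1.2, srpr-2.1 and srpr-2.2 had log2 fold changes of -0.59, -1.12 and -0.94 and did not pass (edgeR adjusted p = 0.471, 0.335 and 0.372). These genes resemble each other closely, so reads could be split among them.

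**Figure D4:**
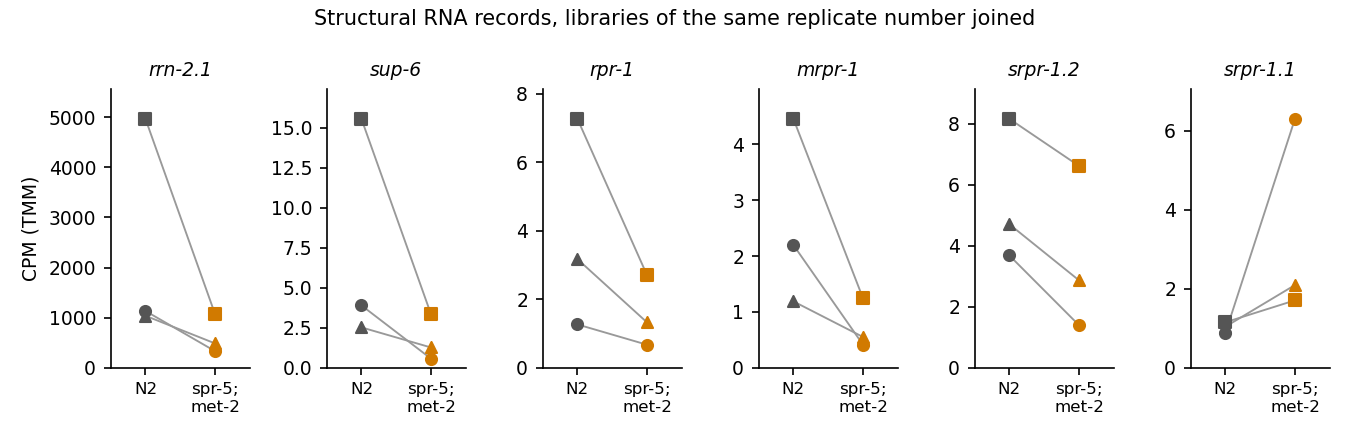
Level of 6 structural RNA records in each library on a CPM axis from 0, N2 on the left and spr-5; met-2 on the right, with libraries of the same replicate number joined (circle 1, triangle 2, square 3). In rrn-2.1, sup-6, rpr-1, mrpr-1 and srpr-1.2 every line falls and replicate 3 is the highest, and in srpr-1.1 every line rises.

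Few records of small RNAs reached the minimum, which need not reflect their level in the larvae, since the library kit is not given. Of the 5 microRNA records, mir-354 alone passed, at 267, 128 and 146 CPM in N2 and 104, 88.0 and 92.2 CPM in the mutant. Every mutant library was below every N2 library, with -0.93 ± 0.26 on the log2 scale (SE, adjusted p = 0.0357 by edgeR), and the call was lost without any 1 mutant library (0.0585 to 0.112). mir-354 lies on an exon of rps-20, a ribosomal protein gene of the same strand counted at 3207 CPM in N2 and 2630 CPM in the mutant, which differed by -0.29 (0.220). The length of the record is 110 bases, that of a hairpin and not of a mature microRNA. mir-86 stood at 1.34 ± 0.218 CPM (SD, n = 3) in N2 and 2.106 ± 0.538 in the mutant (edgeR adjusted p = 0.162), and mir-5548 and mir-8192 both differed by -0.01 (0.991 and 0.993), with mir-5548 at 0.65 without N2 replicate 1.

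Of the 11 21U-RNA records, 9 lie on an exon of a protein-coding gene, 6 of them on the opposite strand. Their median length is 21 bases, and for those 9 the reads of a 21U-RNA and of the gene at its place cannot be told apart. The most abundant, 21ur-10153 on an exon of lin-66, stood at 6.71, 12.2 and 21.3 CPM in N2 and 11.8, 19.2 and 16.2 CPM in the mutant, and the groups overlapped (edgeR adjusted p = 0.709). 21ur-14269, opposite cdk-12, rose by 1.60 ± 0.49 on the log2 scale (SE, edgeR adjusted p = 0.0477). That call was lost without any 1 N2 library, without mutant replicate 2 or 3, and with limma voom (0.0530 to 0.159). 21ur-15673, opposite the succinate dehydrogenase gene mev-1, fell by 1.19 ± 0.29 (edgeR adjusted p = 0.0194), a call lost without any 1 mutant library and with library size alone (0.0529 to 0.0930). The other 9 did not pass. All 21U-RNA records together, counted or not, summed to 76.5, 75.3 and 104 CPM in N2 and 84.6, 108 and 95.2 CPM in the mutant.

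Non-coding records of protein-coding genes are isoforms that RefSeq lists without a protein. Of 130, 20 were higher and 12 lower, with a median log2 change of -0.07, and with library size alone 24 were higher and 4 lower. The lower count was 6, 5 and 3 without N2 replicate 2, mutant replicate 2 and mutant replicate 3. Their own mRNA records could rarely be set beside them: 114 of the 129 genes have 1 in the tables, and 88 of these had 0 counts in every library. For the 17 genes with both tested the log2 fold changes had Pearson's r = 0.97 and Spearman's rho = 0.74. Both are descriptions over genes that are not independent and that share libraries. The 17 include pals-3, whose record had the largest log2 fold change of the class at 9.50, and r without it was not computed. Of these genes, 2 had a higher record and a higher mRNA, and 2 had a lower record and an mRNA that was not called.

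The rises reached from records well counted in N2 to records with no count there. These are levels of records and not of genes, since how reads shared between isoforms were counted is not given. The record of pals-3, of the pals family of the intracellular pathogen response, had no count in N2 and 2.998, 6.12 and 4.02 CPM in the mutant, at least 85.2-fold higher against a floor of 3 counts over the group, and its mRNA was higher as well. F28F8.7 had 1 count in all N2 libraries together and 3.57, 2.65 and 2.92 CPM in the mutant, a ratio of 177.1 with an exact 95% interval of 31.4 to 7029. Its fitted log2 fold change was 7.04, or 8.98 without N2 replicate 2, which held that count. gpa-9, a G protein alpha subunit gene, rose from 4.62, 3.37 and 5.16 CPM to 22.2, 33.4 and 25.7 CPM, 2.63 ± 0.24 on the log2 scale (SE, adjusted p = 0.000195 by edgeR). chdp-1, a gene for a calponin homology domain protein, rose from 31.6, 27.3 and 33.8 CPM to 76.7, 103 and 81.4 CPM, or 1.49 ± 0.16 (edgeR adjusted p = 0.000406). ZC190.10, Y55F3AM.21, C49A9.9 and T28A8.8 rose by 3.66, 3.05, 2.93 and 2.63 (edgeR adjusted p = 0.000391, 0.000144, 0.00143 and 0.000660). No mutant library of these 8 records was within the N2 range, as the rule for naming asked. pals-3 and F28F8.7 were among the 10 records of this class with no N2 library at 20 counts, which were selected through the mutant alone.

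The falls were smaller. ddo-2, a D-aspartate oxidase gene, stood at 3.24, 2.58 and 2.85 CPM in N2 and 0.620, 0.552 and 0.854 CPM in the mutant, -2.07 ± 0.30 on the log2 scale (SE, adjusted p = 0.00202 by edgeR). srj-14, of a chemoreceptor family, stood at 8.13, 5.79 and 6.21 CPM against 2.58, 1.49 and 2.56 CPM, or -1.59 ± 0.28 (edgeR adjusted p = 0.00562). Groups were apart in both, as the rule for naming asked. K08E5.1 fell by 1.22 and ell-1, the gene of a transcription elongation factor, by 1.36 (edgeR adjusted p = 0.0151 and 0.0172). K08E5.1 lost its call without mutant replicate 3 (0.0665) and ell-1 without mutant replicate 1 or 3 (0.0551 and 0.0743). ncs-5, wah-1 and Y73C8B.5 had log2 fold changes of -1.05, -0.73 and -1.4017 (edgeR adjusted p = 0.0260, 0.0231 and 0.0267), and each lost its call without mutant replicate 3 (0.0882, 0.0576 and 0.129) and with library size alone (0.0705, 0.124 and 0.0523). ncs-5 and Y73C8B.5 also lost it without N2 replicate 2 (0.0754 and 0.0520) or mutant replicate 2 (0.0814 and 0.101), wah-1 and Y73C8B.5 without N2 replicate 3 (0.0600 and 0.0614), wah-1 without mutant replicate 1 (0.0511), and Y73C8B.5 without N2 replicate 1 (0.0587).

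1 gene gave 2 non-coding records that went opposite ways. pqn-70 on chromosome V, of a group of genes with glutamine- and asparagine-rich regions, had 1 record at 19.5, 21.5 and 18.4 CPM in N2 and 11.32, 14.4 and 13.9 CPM in the mutant. Its other record, named here after its values were seen, was at 24.7, 24.4 and 28.1 CPM in N2 and 32.3, 39.9 and 37.7 CPM in the mutant. The first was lower in all mutant libraries and the second higher. Their log2 fold changes were -0.58 ± 0.16 and 0.51 ± 0.14 (SE, edgeR adjusted p = 0.0313 and 0.0324). The call of the first was lost without N2 replicate 2 or any 1 mutant library (0.0656 to 0.0984), with library size alone (0.199) and with no count filter (0.0610). The second had adjusted p-values up to 0.127 over the same alternatives. Exon reads shared by both records could be assigned to either or to none.

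The most counted record of this kind, tos-1, stood at 2950, 2925 and 1624 CPM in N2 and 2101, 1059 and 1335 CPM in the mutant. The groups overlapped. Its log2 fold change was -0.74 ± 0.31 (SE) with an edgeR adjusted p of 0.123, and 0.0318 with the replicate block and 0.0402 without mutant replicate 1. nkb-1, azin-1 and pqn-53 did not pass (edgeR adjusted p = 0.463, 0.223 and 0.237), and azin-1 passed with library size alone (0.0181).

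Where the records lie was compared with what the gene at that place did. Placed in a current annotation, 69 records lie on an exon of a protein-coding gene of the same strand, 52 opposite an exon and 63 in an intron, and 122 overlap no protein-coding gene. Over the 45 same-strand pairs with both tested, the log2 fold changes of record and gene had Pearson's r = 0.52 and Spearman's rho = 0.57. Over 37 pairs on opposite strands r was 0.35, over 25 pairs with the record in an intron of the same strand -0.10, over 20 pairs in an intron of the opposite strand 0.40 (0.13 for both together), and over 79 pairs with the nearest gene 0.28. These coefficients describe pairs from the same 6 libraries, in which some pairs share a gene and overlapping exons may share reads. Of the 18 higher records that overlap no gene and have a tested neighbour, 7 had a neighbour that was higher and 1 a neighbour that was lower, and of 10 lower records 3 had a lower neighbour. Over all 79 such neighbours 19 were higher and 10 lower, so 36.7% were called, against 25.9% of all tested records.

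Several host genes carried more than 1 expressed record, and all but those of lin-14 and kin-2 are named here after their values were seen. lin-14, the heterochronic transcription factor gene that times early larval fates, hosts the snoRNAs T25C12.11 and T25C12.12 on annotated exons and the ncRNA T25C12.6 in an intron. The snoRNAs rose from 30.8 and 49.2 CPM to 47.2 and 73.5 CPM in group means, whereas T25C12.6 went from 1.37, 0.991 and 1.90 CPM to 0.155, 0.166 and 0.249 CPM, -2.83 ± 0.43 on the log2 scale (SE, adjusted p = 0.00266 by edgeR). T25C12.6 reached 20 counts in N2 libraries alone, so it was selected through N2. The lin-14 mRNA record differed by 0.42 and did not pass (0.505). On the SUMO protease gene ulp-4, C41C4.18 and C41C4.19 rose by 0.76 and 0.82 (edgeR adjusted p = 0.00826 and 0.0153), C41C4.20 stood at 1.196 (0.0506, and 0.0305 with the replicate block), and ulp-4 at 0.50 did not pass (0.184). On F58D5.5, F58D5.11 rose while F58D5.12 and F58D5.13 were at 0.41 and -0.11 (0.436 and 0.773).

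**Figure D5:**
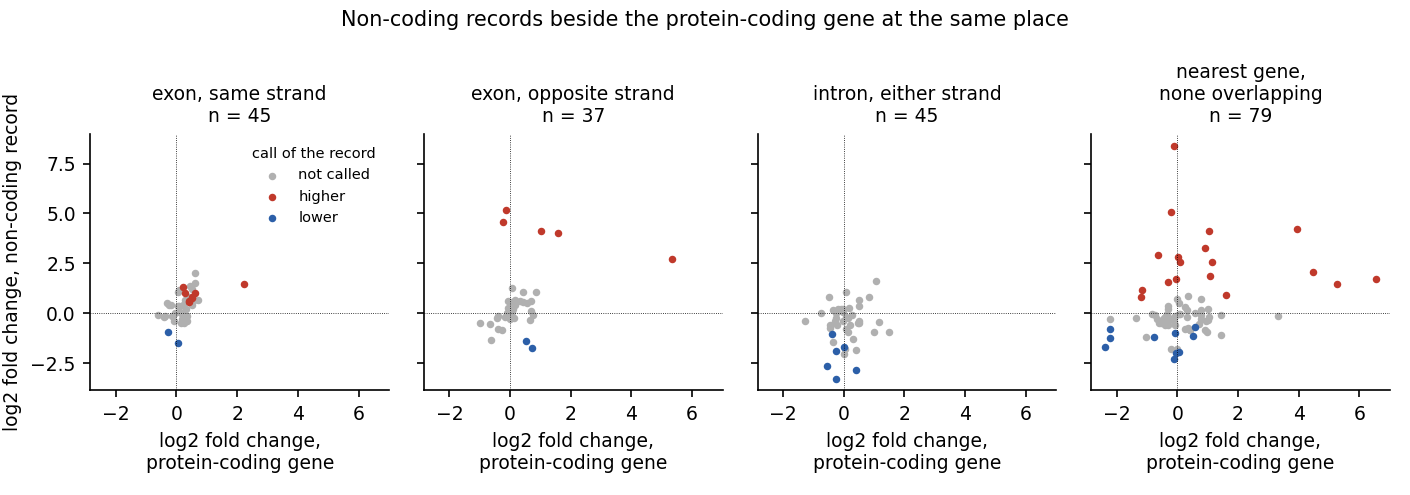
Log2 fold change of each non-coding record (vertical axis) against that of the protein-coding gene it overlaps on an exon of the same strand, on an exon of the opposite strand or in an intron, or that lies nearest (horizontal axis), coloured by the record's edgeR call. Pairs with both tested number 45, 37, 45 and 79, and in the opposite-strand panel records near 5 stand over genes near 0.

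The protein genes that make these RNAs were examined as 4 lists, beside 14.3% higher and 11.7% lower over all tested records. Of 15 tested genes of the piRNA pathway 5 were higher and none lower (edgeR; lower at an unadjusted p below 0.05: 1, by DESeq2 0 and by voom 0), with a median log2 change of 0.13. prg-1, the Piwi protein that carries 21U-RNAs, stood at 30.7, 26.9 and 25.3 CPM in N2 and 646, 639 and 623 CPM in the mutant, 4.52 ± 0.14 on the log2 scale (SE, adjusted p = 6.49e-06 by edgeR). hrde-1, a nuclear Argonaute of heritable silencing, rose by 3.44 and tofu-4, needed for 21U-RNA production, by 2.91 (edgeR adjusted p = 6.97e-05 and 3.13e-05). These are germline genes, and the germline markers moved with them as given above. Beside them, 1 of the 11 21U-RNA records was higher and 1 lower, and whether 21U-RNAs differ from these genes was not tested. Both of these records lie opposite an exon of a protein-coding gene, so their counts cannot be read as levels of 21U-RNAs.

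Of 10 tested microRNA pathway genes, 3 were higher and none lower (edgeR; lower at an unadjusted p below 0.05: 0, by DESeq2 0 and by voom 0), namely dcr-1, lin-46 and cgh-1, and the median was 0.31. The cgh-1 call was lost without N2 replicate 1 or 3 or any 1 mutant library (edgeR adjusted p 0.0514 to 0.101). Of 20 tested genes of snoRNA proteins and ribosomal RNA processing none was higher (edgeR; at an unadjusted p below 0.05: 1, by DESeq2 0 and by voom 0) and 2 were lower, rrp-8 at -0.64 and nol-16 at -0.43 (0.0212 and 0.0307), with a median of -0.07. rrp-8 lost its call without N2 replicate 3 or mutant replicate 2 or 3 (0.0522 to 0.0909), and nol-16 without N2 replicate 2 or 3 or any 1 mutant library (0.0614 to 0.0997), and both with library size alone (0.0965 and 0.368). fib-1, the snoRNA-guided methyltransferase fibrillarin, differed by -0.30 and did not pass (0.329). Of 24 tested genes of snRNA making, trans-splicing and RNA polymerase III, 8 were higher and 2 lower, with a median of 0.23. snpc-1.2 and snpc-3.1, which encode subunits of the complex that activates snRNA genes, rose by 3.52 and 3.26 (edgeR adjusted p = 1.05e-05 and 0.000354), and ints-11, the endonuclease of Integrator, rose by 0.68 (0.00767). Each of the other calls of this list was lost in at least 1 alternative fit. Without mutant replicate 3 the calls of sna-2, ints-4, ints-7 and rpc-1 were lost (edgeR adjusted p = 0.0599, 0.115, 0.0815 and 0.134). ints-4 and ints-7 also lost them without N2 replicate 2 or 3 or mutant replicate 1 or 2 (0.0629 to 0.122), rpc-1 without any other library (0.0860 to 0.116), and rop-1 without mutant replicate 2 (0.0516). Of the lower ones, smr-1 lost its call without N2 replicate 2 (0.0508) and sut-2 without N2 replicate 2 or any 1 mutant library (0.0807 to 0.156), and both with library size alone (0.131 and 0.420).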

How the data were processed

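RNA was sequenced in 6 libraries, whose titles give group and replicate number. The submitters' processing notes name build ce10 and the tools featureCounts, Trimmomatic, FastQC and DESeq2 2.11.40.2, with no role for any, and column headers name HISAT2. How strand and shared reads were treated, and with which kit libraries were made, is not given in the sources used here. Per the file headers and values, the authors deposited whole-number counts per transcript record, not normalized. The authors' deposited table of comparisons holds a mean normalized signal, a log2 fold change, 2 scores (a standard error and a Wald statistic) and raw and adjusted p-values for each record. Among the records described here it called 65 higher and 50 lower, 100 of them as here.

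Counts of all 50832 records were kept by filterByExpr (minimum count 10, minimum total 15), scaled by TMM and tested two-sided with edgeR 4.0.16 (R 4.3.3), with Benjamini-Hochberg adjustment over 14557 records. The test was checked on simulated counts. CPM values are TMM-scaled, and standard errors (SE) come from the F statistic. Records were named and classed by a RefSeq gene table of WBcel235, and placed and measured in an Ensembl annotation of that build, so no coordinates are given and exonic length is that of the gene. The floor is 3 counts over a group. Floors and intervals cover counting error only.

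The members, lists and named records were chosen with earlier results of these data known. Up to 8 higher and 8 lower records per class with no overlap and at least 1 CPM, the 4 most abundant per class, and known RNAs were named, and the class of other non-coding RNAs was divided into ncRNA, lincRNA, antisense RNA and records of protein-coding genes after the annotation was seen. From the protein gene lists, gar-1, tut-1, xpo-2 and mep-1 were left out as misplaced and double names were merged.

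Replicate numbers come from the titles. Deviations of same-numbered libraries from their group means correlated at 0.457, 0.356 and 0.186, so the numbers were taken to pair the samples and a fit with the number as a block was run as an alternative. The others were DESeq2 size factors, library size alone, no filter, 1 CPM in 3 libraries, DESeq2 1.42.0, limma voom (limma 3.58.1), each library left out, an adjusted p below 0.01, a 2-fold minimum, and other count minimums. Replicates differed beyond sampling noise (chi-square per degree of freedom at least 25.4).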

Additional observations from a re-analysis of the deposited data

How the results depend on the processing

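Over 13 other fits, 60 of the 102 called records kept their call in all of them, 42 lost it in at least 1 and 0 changed sign. The replicate block called 140 records, 100 of them also called without it. Beside the records given above with their block values, it changed no other call of a named record. With library size alone 23 records were lower (11 ncRNA, 4 lincRNA, 1 snoRNA, 4 of protein-coding genes), and 5 antisense RNAs were higher. With an adjusted p below 0.01, 16 were lower (10 ncRNA, 2 lincRNA, 1 antisense RNA, 1 snoRNA, 2 of protein-coding genes), and 2 lincRNAs and 3 snoRNAs were higher. With a minimum of 2-fold 3 snoRNAs were higher and 7 records of protein-coding genes lower. No filter and DESeq2 each gave 4 lower snoRNAs, and the block 8, with 5 higher antisense RNAs. A minimum of 10 counts gave 8 higher lincRNAs and 4 lower snoRNAs. A minimum of 50 counts gave 39 higher (13 ncRNA, 3 lincRNA) and 27 lower (8 ncRNA, 1 snoRNA). A minimum of 20 counts in all 6 libraries gave 23 higher (7 ncRNA, 2 lincRNA, 0 antisense RNA, 9 of protein-coding genes) and 25 lower (7 ncRNA, 1 snoRNA). Records on no protein-coding exon gave 25 higher (0 antisense RNA, 1 snoRNA) and 25 lower (0 antisense RNA). The correlation with the partner gene was 0.473 (filter of 1 CPM) and 0.378 (voom) for opposite exons, 0.301 (1 CPM) for introns, and 0.990 (1 CPM) and 0.953 (voom) for own genes. The cause was not tested.

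Leaving out each library gave 47 to 65 higher and 22 to 46 lower records. By class the ranges were 19 to 28 and 11 to 23 (ncRNA), 2 to 5 and 3 to 7 (lincRNA), 3 to 4 and 2 to 2 (antisense RNA), 4 to 8 and 1 to 3 (snoRNA), and 17 to 21 and 3 to 11 (protein-coding genes). The correlations ranged from 0.310 to 0.388 for opposite exons, 0.373 to 0.551 for exons of the same strand, 0.00587 to 0.289 for introns and 0.943 to 0.977 for own genes. The difference in the share of all counts ranged from -0.187 to 0.164 percentage points. The median record held 2.70 CPM, which limits how small a change could be called at this depth.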
